A study of Saccharomyces cerevisiae with 8 samples.

Results

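Cryptic unstable transcripts (CUTs) of budding yeast were examined here if they already gave reads in control cells that had received rapamycin for 30 min. Members were selected on measured values: the raw read counts of a CUT in the 2 control libraries had to add up to 5 or more. That rule kept 288 of the 925 CUTs in a table of 7659 features and left 637 CUTs outside. Over a Nab2 anchoring course of 0, 15 and 30 min, the summed level of the 288 members went from 481 ± 78.1 to 1059 ± 24.2 and then 1216 ± 30.1 CPM (reads per 1e6 counted reads, scaled between libraries; mean ± SD, n = 2 libraries each). Of the 231 members with enough reads to test singly, CUT377 rose at 15 min and CUT377 and CUT557 at 30 min and none fell, where 0.145% of all features rose and 0.0162% fell at 15 min and 0.501% rose and 2.26% fell at 30 min.

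CUTs are short, capped noncoding RNAs made by RNA polymerase II, many of them from the nucleosome-free regions where promoters also lie. In wild-type nuclei the Nrd1-Nab3-Sen1 complex terminates their transcription early, the TRAMP complex adds short tails, and the nuclear exosome with its nuclease Rrp6 degrades them, so that little of the RNA accumulates. Nab2 is a nuclear poly(A)-binding protein of the same yeast that coats poly(A) tails of RNAs before export and limits tail length.

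Nab2 was removed from the nucleus by anchor-away, in which rapamycin joins an FRB tag on the target to FKBP12 on the ribosomal protein Rpl13A, and the ribosomal subunit carries the target out to the cytoplasm. The anchor-away strain Y3284 carried tor1-1, a deletion of FPR1 (fpr1::loxPLEU2-LoxP), RPL13A-2xFKBP12 and NAB2-FRB::HIS, and 2 biological replicates each were taken before treatment and when rapamycin (1 µg/ml) had acted for 15 or 30 min. The control strain Y2615 carried tor1-1, the same FPR1 deletion and RPL13A-2xFKBP12 but no FRB tag on NAB2. It was sampled in 2 replicates after 30 min of rapamycin, so there was no control at 15 min and no untreated control. All cells thus carried the Rpl13A anchor and a Tor1 allele that makes growth insensitive to rapamycin. Within the anchor-away strain the time of anchoring and the time with rapamycin are the same variable and cannot be told apart. The labels name the mating type of the control as MATa and do not complete it for the anchor-away strain.

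Total RNA was depleted of ribosomal RNA and made into strand-specific libraries, and the deposited values are reads per feature. The 8 libraries held between 4832948 and 17023017 counted reads, of which the members took between 0.0420% and 0.151%. A feature's reads were not divided by its length, which the table does not give, so levels here compare 1 CUT between libraries and not 1 CUT with another. In 3 libraries more than 20% of all features had no read. These were replicate 1 at 15 min (24.4%), replicate 2 at 30 min (28.2%) and replicate 1 of the control (28.2%), against 9.18% to 15.4% in the other 5. They are called the sparse libraries below. At 15 min the sparse replicate 1 held 9308525 reads, and replicate 2 held 7562689 with 12.9% of features undetected; the part of depth was not tested. NAB2 mRNA stood at 264 and 211 CPM at 0 min, 164 and 174 at 15 min, and 203 and 228 at 30 min; anchoring moves the protein, so this level does not check it.

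The sparse libraries touch the members strongly. At 0 min 13 and 14 of the 288 members had no read (replicates 1 and 2). At 15 min the numbers were 138 in replicate 1 and 13 in replicate 2. At 30 min they were 7 in replicate 1 and 171 in replicate 2, and in the control 200 in replicate 1 and 8 in replicate 2. The sparse libraries thus missed 138 to 200 members, while the 5 others missed 7 to 14. Messenger RNAs were far less affected, with 6.55%, 9.34% and 8.13% of 5117 open reading frame (ORF) transcripts at 0 in the sparse libraries and 0.78% to 3.13% in the others. Only 32 members had a read in all 8 libraries and 74 in all 6 anchor-away libraries.

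**Figure D1:**
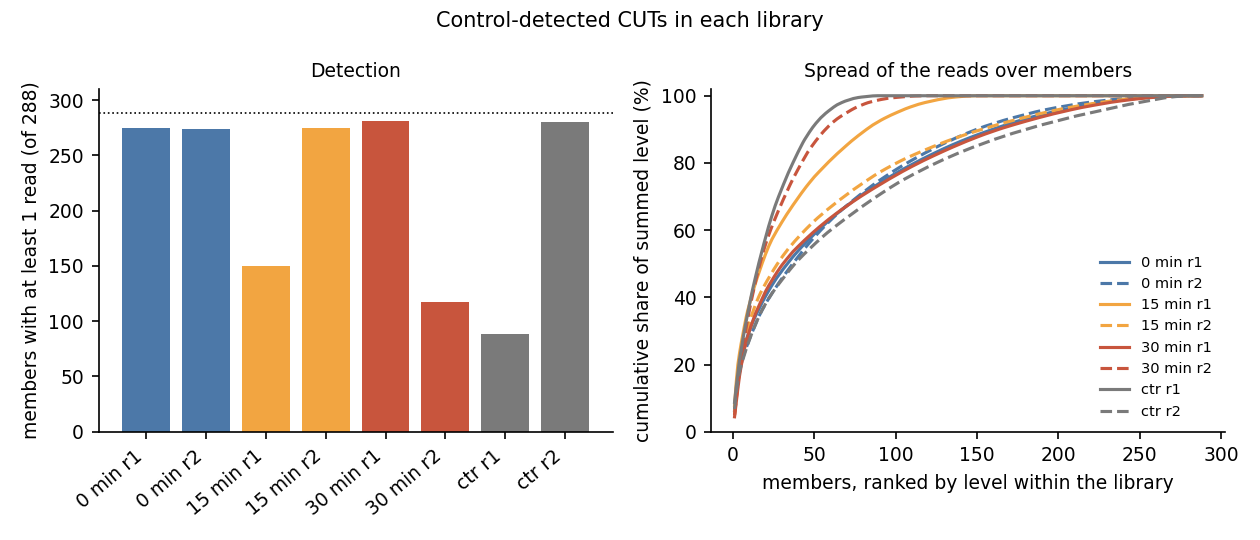
Members with at least 1 read in each library (left, of 288; dotted line at 288) and the cumulative share of the summed member level against the rank of the member within the library (right; dashed lines are replicate 2). Bars for replicate 1 at 15 min, replicate 2 at 30 min and replicate 1 of the control are low, and in the same 3 libraries 50 members hold 75.9%, 86.0% and 91.2% of the level, against 55.8% to 62.7% in the others.

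Membership itself rested mainly on 1 control library. Of the 288 members, 264 had 5 or more reads in control replicate 2 and 74 had 5 or more in replicate 1, while 24 had fewer than 5 in replicate 2. The median member had 15 control reads in all and the highest had 599. Because the control counts chose the members, every value set against the control is a description and was not tested.

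The summed member level was higher in each anchored library than in each untreated one. It stood at 536 and 426 CPM at 0 min, at 1042 and 1077 CPM at 15 min and at 1194 and 1237 CPM at 30 min. The 0 min libraries lay apart from all 4 later ones. With this scaling the later libraries lay close together whether sparse or not. The ratio of means was 2.20 at 15 min over 0 min (1.94 to 2.53 over the pairs of libraries) and 2.53 at 30 min (2.23 to 2.90). From 15 to 30 min it was 1.15 (1.11 to 1.19), against 1.47 with total library size and 1.28 with scaling on snoRNA features. Against the 0 min mean, the libraries that were not sparse stood at 2.24 (15 min) and 2.48 (30 min) and the sparse ones at 2.167 and 2.57. Scaling on snoRNA features gave lower ratios of 1.24 at 15 min and 1.60 at 30 min, and scaling on mitochondrial features gave 1.59 and 1.84. The ratios are relative to the RNA used for scaling and do not give absolute amounts. No p was computed for the sum, since the members were chosen with these data known.

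For comparison, the sum over all SUTs, the stable unannotated transcripts, was 1.43 times its 0 min level at 15 min and 1.51 times at 30 min. ORF transcripts stood at 1.09 and 0.850. The 637 CUTs with fewer control reads stood at 3.12 and 3.81 times, from a 0 min sum of 90.0 ± 17.6 CPM (SD, n = 2). The members' ratios thus lay between those of SUTs and those of the remaining CUTs, without a test of these differences. The rule left outside the CUTs with few reads in unanchored cells, so the order of members and remaining CUTs may be partly set by the rule. In the control the members summed to 427 and 626 CPM, which overlaps the untreated anchor-away libraries and lies below every anchored one. In these bulk samples fewer cells that make a transcript and less of it per cell cannot be told apart.

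**Figure D2:**
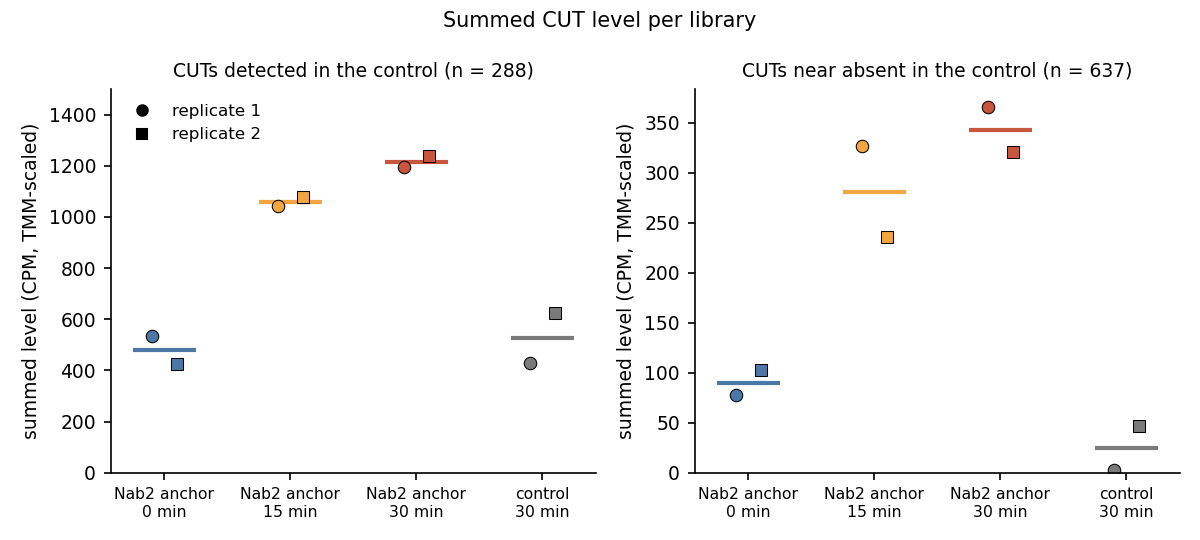
Summed level (CPM, scaled between libraries by the TMM method) of the 288 control-detected CUTs (left) and of the 637 other CUTs (right) in each library; circles are replicate 1, squares replicate 2 and bars group means. The members' 4 anchored libraries lie between 1042 and 1237 CPM and the other 4 between 426 and 626 CPM; the 2 panels have different scales.

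The rise of the sum did not rest on the few members with most reads. Without the 6 highest, the other 282 summed to 373, 789 and 953 CPM at 0, 15 and 30 min (group means), ratios of 2.11 and 2.55. When the members were split into 3 bands of 96 by mean CPM over all 8 libraries, the ratios at 15 and 30 min were 2.43 and 3.02 in the highest band (2.39 to 43.3 CPM). In the middle band (1.05 to 2.37 CPM) they were 2.02 and 1.73. In the lowest band (0.0840 to 1.05 CPM) they were 1.14 and 1.07, and there replicate 1 at 15 min had no read for 81 members and replicate 2 at 30 min none for 85. Its sums were 63.2 and 40.5 CPM at 0 min, 23.6 and 94.8 at 15 min and 101 and 9.67 at 30 min, so the sparse libraries lay below both untreated ones and the others above. Because the mean that made the bands includes the anchored libraries, members that were high after anchoring fall into the higher bands, and the order of the ratios is partly set by the split. The part of undetected members in it was not tested.

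Counted one by one, most members had a higher mean after anchoring. With no filter, 184 of 288 were higher and 101 lower at 15 min than at 0 min, where 42% of all features were higher and 49.1% lower. At 30 min 198 were higher and 88 lower, where 46.2% of all features were higher and 46.6% lower. From 15 to 30 min 156 were higher and 129 lower, where 46.5% of all features were higher and 45.8% lower. The single libraries differed. In the 2 later libraries that were not sparse, 218 members were above the 0 min mean at 15 min (replicate 2; background 41.8%) and 243 at 30 min (replicate 1; background 48%). In the sparse ones 118 were above it at 15 min (replicate 1; background 36.7%) and 95 at 30 min (replicate 2; background 34.3%). A member found in a sparse library tended to carry many reads there: the median of the detected members was 4.04 CPM in replicate 1 at 15 min and 6.0 CPM in replicate 2 at 30 min, against 1.89 and 2.40 CPM in the other library of the same time. These medians cover only members with a read, and whether they account for the similar sums was not tested.

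Of the 288 members, 231 had enough reads for the test, edgeR's quasi-likelihood test with Benjamini-Hochberg adjustment over all 6191 features tested. The 57 that were left out had means of at most 1.66 CPM over the 8 libraries. Together they summed to 21.4, 20.4 and 20.9 CPM at 0, 15 and 30 min (group means). Some had their reads mainly in 1 library: CUT185 had 93 reads in the sparse control library and 0 to 9 in each other one. Passing the read filter depends in part on being high in some group, so values over the 231 describe those and not all members. Their median log2 fold change was 1.03 at 15 min (quartiles -0.10 and 1.79) against -0.06 over all features tested, and 0.84 at 30 min (quartiles 0.02 and 1.97) against -0.05. Between 15 and 30 min it was 0.09 against -0.04. Without the 3 sparse libraries the medians over 265 tested members were 0.87 and 1.24 at 15 and 30 min. With only the sparse library left at its time point, the medians turned to -0.62 at 15 min and -3.99 at 30 min, so the direction of the typical member rests on replicate 2 at 15 min and replicate 1 at 30 min.

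At an adjusted p under 0.05, 1 member rose and none fell at 15 min over 0 min, where 0.145% of all features rose and 0.0162% fell. At 30 min over 0 min 2 rose and none fell, where 0.501% rose and 2.26% fell. Between 15 and 30 min edgeR called 0 members, where 0.452% of all features changed in either direction; at an unadjusted p under 0.05 it gave 0 rises and 1 fall there, against 3.12% and 7.51% of all features, and DESeq2 also called 0. At an unadjusted p under 0.05 the numbers were 6 rises and 0 falls at 15 min, against 2.67% and 4.17% of all features, and 11 rises and 0 falls at 30 min, against 4.05% and 10.7%. In 79 of 231 members both libraries at 15 min lay above both at 0 min, against 19.1% of all features, and in 10 both lay below, against 26.3%. At 30 min 79 lay above, against 20%, and 5 below, against 27.7%. Between 15 and 30 min 33 lay above, against 18.7%, and 29 below, against 22.2%. The common biological coefficient of variation between replicates was 0.611 over all features tested.

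**Figure D3:**
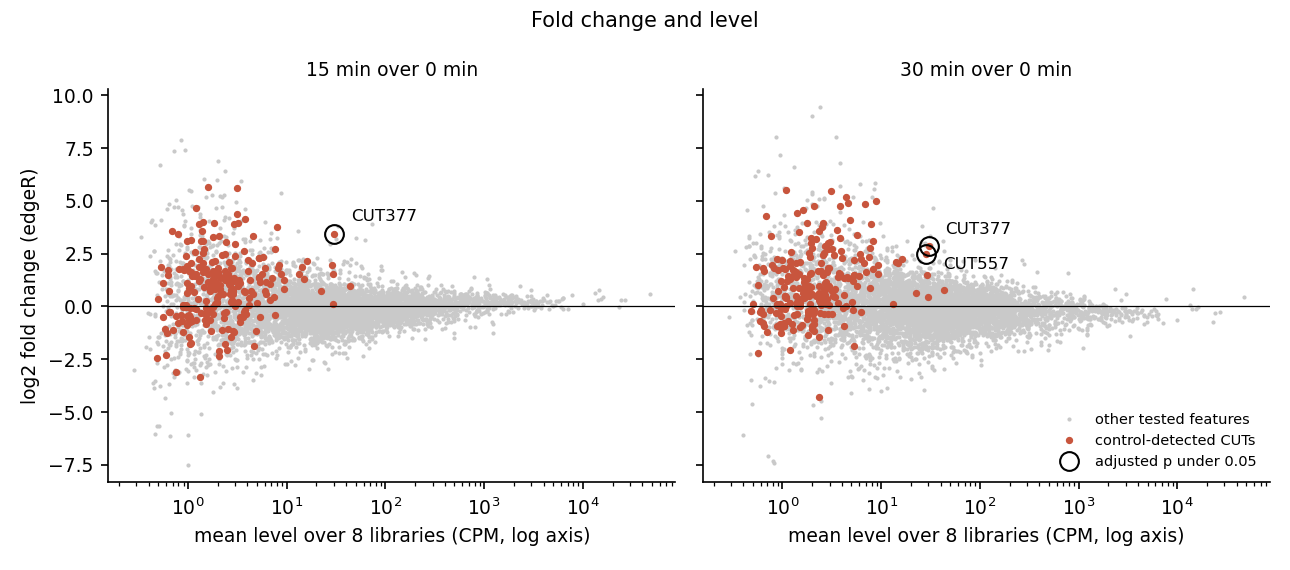
Log2 fold change (edgeR) at 15 min (left) and 30 min (right) over 0 min against mean level over the 8 libraries (CPM, log axis) for the 6191 features tested; red points are the 231 tested members and rings mark members with an adjusted p under 0.05. Members cluster at low levels and mostly above 0, and the ringed CUT377 and CUT557 are among the few members above 20 CPM.

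CUT377 rose at both times. Its level was 6.83 and 5.30 CPM at 0 min, 81.5 and 51.2 CPM at 15 min, 49.2 and 39.1 CPM at 30 min and 3.09 and 7.17 CPM in the control. All 4 anchored libraries were above the 4 others, and the 15 min libraries were both above the 30 min ones. The log2 fold change was 3.45 ± 0.60 (edgeR adjusted p = 0.0250) at 15 min and 2.86 ± 0.59 (edgeR adjusted p = 0.0123) at 30 min. Here and below, ± on a log2 fold change is an SE taken from the test on all 8 libraries, with 2 libraries a group. The step from 15 to 30 min, -0.59 ± 0.55, did not pass (edgeR adjusted p = 0.794). The call at 15 min was lost without replicate 1 at 0 min (edgeR adjusted p = 0.0616) and without replicate 1 at 15 min (0.349), and that at 30 min without replicate 1 or 2 at 0 min (0.0678 and 0.0538). Scaling on mitochondrial features ended both calls (0.361 and 0.138).

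CUT557 stood at 10.2 and 10.4 CPM at 0 min, at 25.5 and 54.7 CPM at 15 min, at 53.2 and 61.1 CPM at 30 min, and at 4.00 and 10.9 CPM in the control. Every anchored library was above every other one, and 1 of the 15 min libraries was as high as those at 30 min. At 30 min it rose with a log2 fold change of 2.47 ± 0.62 (SE from the test on all 8 libraries, edgeR adjusted p = 0.0384). At 15 min the change of 1.96 ± 0.61 did not pass (edgeR adjusted p = 0.367). Leaving out replicate 1 or 2 at 0 min, or replicate 2 at 30 min, ended the call at 30 min (edgeR adjusted p = 0.253, 0.105 and 0.0800), as did scaling on mitochondrial or snoRNA features (0.252 and 0.0807).

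The table gives no coordinates for CUTs, but its features are numbered along the chromosomes, 1 strand after the other: 5005 of 5029 neighbouring gene pairs follow the order of the R64 annotation. By number, CUT377 lies on the Watson strand of chromosome XV between RPL3, which encodes a protein of the large ribosomal subunit (444686 to 445849), and CYT1, which encodes cytochrome c1 (447439 to 448368). The annotation also lists YNG1, on the opposite strand, at 446079 to 446738 in that gap of 1589 bases. RPL3 was at 6768, 6270 and 4473 CPM at 0, 15 and 30 min (means), with log2 fold changes of -0.11 ± 0.28 and -0.60 ± 0.28, and CYT1 had 0.11 ± 0.26 and 0.45 ± 0.26. Neither passed (edgeR adjusted p from 0.324 to 1.0).

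CUT557 is numbered on the Crick strand of chromosome V between GPP2, a glycerol-3-phosphate phosphatase gene (279930 to 280682), and VHR2 (282705 to 284222), with THO1 on the opposite strand at 281710 to 282366. GPP2 changed by 0.54 ± 0.37 and VHR2 by -0.18 ± 0.39 on the log2 scale at 30 min, and neither passed (edgeR adjusted p = 0.611 and 0.936). THO1 changed by -0.57 ± 0.57 (edgeR adjusted p = 0.794). The same-strand neighbours of the 2 CUTs therefore did not pass in the comparisons in which the CUTs did, without a test of the difference. Whether reads of either CUT overlap those of a neighbour could not be read from the table.

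The other 4 members among the 6 with the highest mean CPM did not pass. CUT281 stood at 34.1 and 25.5 CPM at 0 min, 69.9 and 47.0 CPM at 15 min, 45.0 and 56.9 CPM at 30 min and 37.4 and 30.5 CPM in the control. Its anchored libraries were all above the others, by 0.97 ± 0.44 on the log2 scale at 15 min and 0.77 ± 0.44 at 30 min (edgeR adjusted p = 0.689 and 0.479). It is numbered between RSC9, which encodes a subunit of the RSC chromatin remodeller, and GTR1, on chromosome XIII. In that gap of 8120 bases the annotation lists, among others, PHO84, the high-affinity phosphate transporter gene, on the opposite strand and an antisense RNA (23564 to 26578) on the same strand.

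CUT306 gave 19.7 and 11.8 CPM at 0 min, 55.2 and 35.5 CPM at 15 min, 34.4 and 55.1 CPM at 30 min and 1.60 and 20.1 CPM in the control. The anchored libraries again lay above all others, at log2 fold changes of 1.53 ± 0.81 and 1.51 ± 0.81 (edgeR adjusted p = 0.804 and 0.441). Its numbered place, between RPL36A and ICY1 on the Watson strand of chromosome XIII, also holds the small nucleolar RNA gene SNR11 on the same strand (652275 to 652532), so the assignment of reads between them is uncertain. CUT025 was at 21.4 and 14.4 CPM at 0 min, 35.2 and 23.6 CPM at 15 min, 31.4 and 23.6 CPM at 30 min and 10.5 and 18.3 CPM in the control. Its 4 anchored libraries were above the 4 others by less than in CUT306, with 0.72 ± 0.61 and 0.62 ± 0.61 (edgeR adjusted p = 0.982 and 0.788). CUT229 was at 33.1 and 23.0 CPM at 0 min, 22.5 and 38.9 CPM at 15 min, 49.4 and 27.5 CPM at 30 min and 0 and 42.5 CPM in the control. Its groups overlapped throughout, and the control libraries alone ran from 0 to 379 reads.

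**Figure D4:**
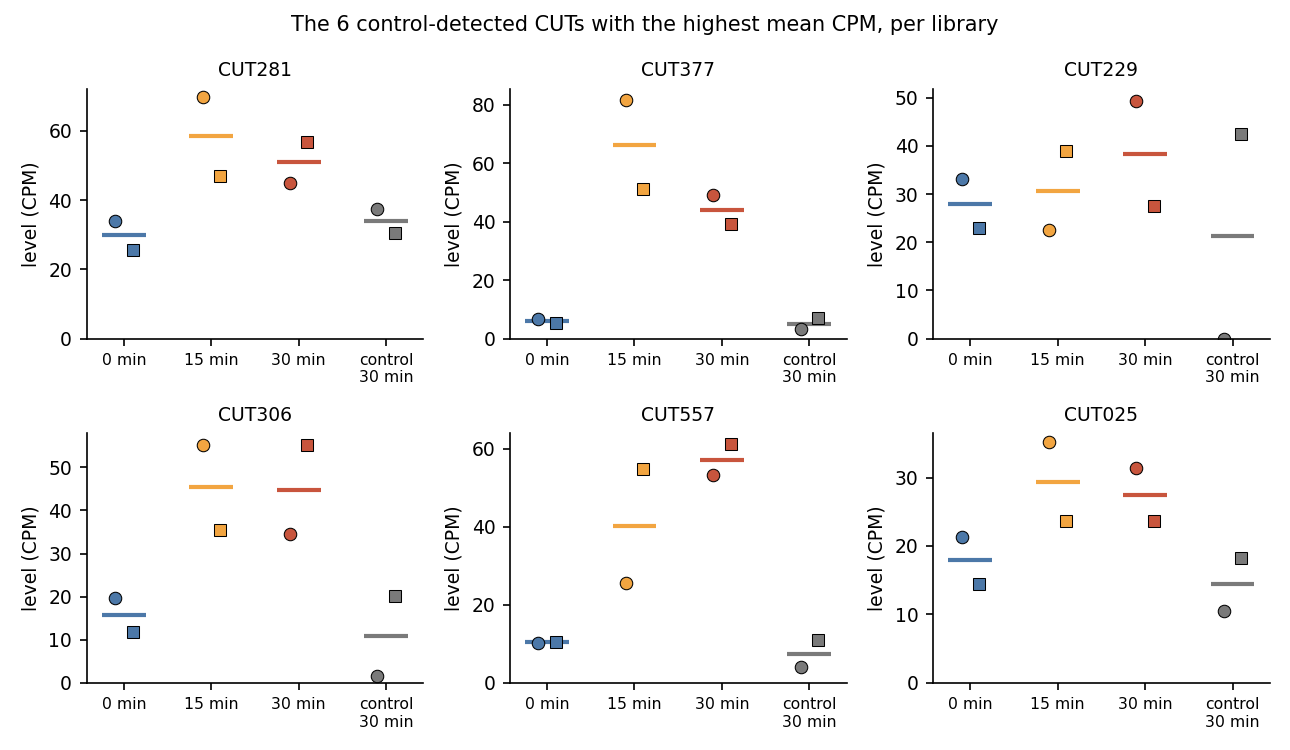
Level (CPM) of the 6 members with the highest mean in each library of the Nab2 anchor-away strain at 0, 15 and 30 min and of the control at 30 min; circles are replicate 1, squares replicate 2, bars group means, and each panel has its own scale. In CUT281, CUT377, CUT306, CUT557 and CUT025 all 4 anchored libraries lie above the other 4, and in CUT229 the groups overlap.

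At the upper end of the fold changes stood members with few untreated reads, where a ranking by the ratio to 0 min tends to place them. The read minimum used here is a mean that includes the 30 min libraries, so a member can pass it through its reads there. Among the 114 tested members with a mean of at least 20 reads, the 6 with the highest log2 fold change at 30 min were CUT602, CUT657, CUT023, CUT203, CUT882 and CUT681, at 4.74 to 5.46, and none passed (edgeR adjusted p from 0.195 to 0.362). CUT203 had 0 and 14 reads at 0 min, 42 and 26 reads at 15 min, 143 and 72 reads at 30 min and 4 and 3 reads in the control. In CPM every library at 30 min was above every one at 15 min, and these above both at 0 min. CUT023 had 10 and 21 reads at 0 min, 0 and 39 at 15 min and 114 and 270 at 30 min, and the control had 0 and 6. Its change at 30 min, 5.01 ± 1.86, did not pass in edgeR (adjusted p = 0.195) and passed in DESeq2 (0.0150) and in edgeR with no read filter (0.0228). Its 30 min level was 9.77 CPM in replicate 1 and 52.2 CPM in the sparse replicate 2, and without the latter the change was 3.33 (edgeR adjusted p = 0.780).

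CUT657 and CUT882, like CUT023, had most of their 30 min level in the sparse library. CUT657 had 17 reads in replicate 1 and 157 in replicate 2 at 30 min, and CUT882 had 51 and 227, against 5 and 9 and 24 and 2 at 0 min. CUT681 had 7 and 2 reads at 0 min, 68 and 16 reads at 15 min, 14 and 75 reads at 30 min and 28 and 6 reads in the control, so its high values lay in all 3 sparse libraries. CUT602 had 0 and 2 reads at 0 min, 2 and 48 at 15 min and 21 and 24 at 30 min, a ratio in CPM of 43.3 at 30 min with a 95% counting interval of 11.3 to 369, and its highest count, 96, was in the sparse control library.

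At the lower end the 6 members were CUT660, CUT252, CUT746, CUT578, CUT561 and CUT504, at -0.95 to -4.31, and none passed (edgeR adjusted p from 0.578 to 0.953). All 6 had 0 reads in the sparse replicate 2 at 30 min, and 5 of them had 0 in the sparse control library too. CUT504 had 32 and 51 reads at 0 min and 30 and 0 at 30 min, so its replicate 1 was at 2.57 CPM against 2.02 and 3.07 CPM untreated. In CUT561 and CUT746 replicate 1 at 30 min also lay between the untreated libraries, and in CUT660, CUT252 and CUT578 it lay below both. CUT252 was there at 1.542 CPM against 3.603 and 2.47 CPM untreated, and CUT578 at 1.885 CPM against 2.402 and 1.927 CPM. CUT660 had 23 and 18 reads at 0 min, 117 and 4 reads at 15 min, 1 and 0 reads at 30 min and 0 and 17 reads in the control. Its ratio in CPM at 30 min over 0 min was 0.0470, with a 95% counting interval of 0.00116 to 0.277 that does not cover the spread between replicates.

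**Figure D5:**
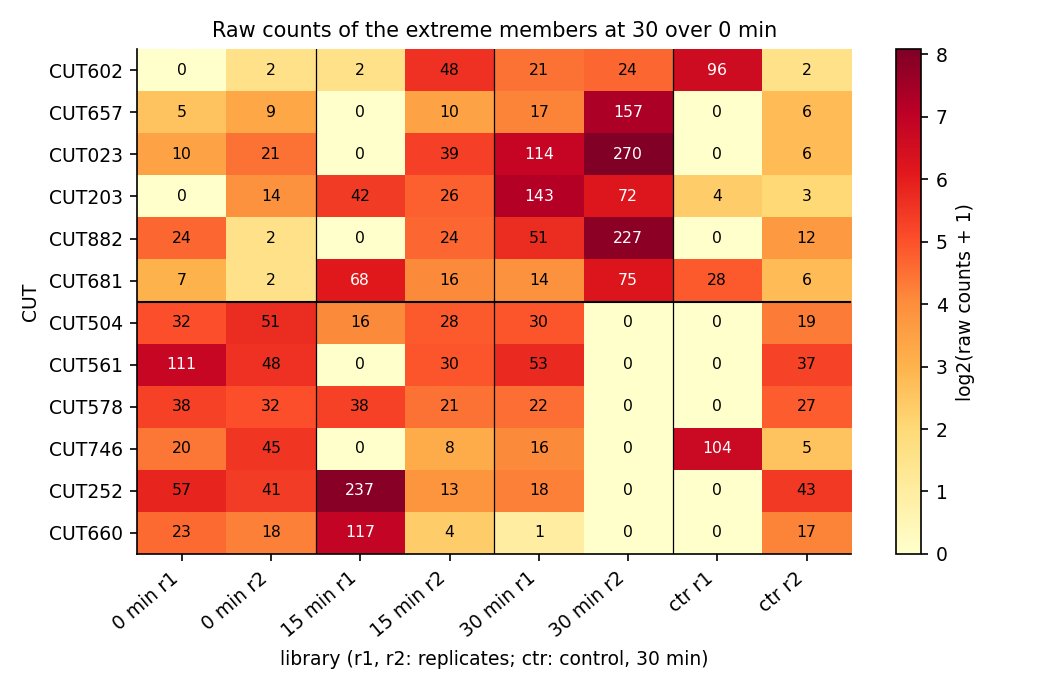
Raw reads of the 6 members with the highest (above the line) and the 6 with the lowest log2 fold change at 30 over 0 min, among members with a mean of at least 20 reads; columns are libraries, cell numbers are reads and colour is log2(reads + 1). Below the line all 6 entries for replicate 2 at 30 min are 0, and above it that column holds the highest read count of CUT657, CUT023, CUT882 and CUT681.

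Values on the 2 sides of the threshold of 5 control reads follow, as a description. At a control sum of exactly 5 were 22 members, 10 of them tested, which summed to 14.0, 31.6 and 35.8 CPM at 0, 15 and 30 min (group means). At a sum of 4 were 31 CUTs, 14 of them tested, which summed to 15.4, 43.9 and 87.1 CPM. Just inside, CUT291 had 15 and 54 reads at 0 min, 128 and 88 at 15 min and 179 and 68 at 30 min, and CUT639 had 14 and 18, 6 and 24, and 79 and 41. Just outside, CUT866 had 0 and 11, 194 and 42, and 263 and 88 reads, and CUT201 had 7 and 15, 0 and 7, and 12 and 328. The 328 reads of CUT201 were in the sparse library, and CUT201 and CUT866 held 32.2 and 19.8 of the 87.1 CPM outside the threshold. CUT447 and CUT899 inside and CUT467 and CUT908 outside completed the 4 on each side with most anchor-away reads. With thresholds of 10 and 20 control reads 190 and 114 members remained, and the calls stayed 1 at 15 min and 2 at 30 min. CUT377 and CUT557 had 91 and 132 control reads and the adjustment still covered all features, so these thresholds could not change the calls.

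Members lay on every chromosome, 129 on the Watson and 155 on the Crick strand for the 284 that the numbering places. The sum was above its 0 min level on 15 of 16 chromosomes at 15 min and on 16 of 16 at 30 min. The exception was chromosome VI at 15 min, with 4 members and a ratio of 0.939. These ratios have no test, and each shares its 2 libraries per group with all the others.

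A list of 30 RNA processing and decay genes was read from the same libraries. It held NRD1, NAB3 and SEN1 of the termination complex, PAP2 (Trf4), TRF5, AIR1, AIR2 and MTR4 of TRAMP, and the exosome genes and cofactors RRP6, LRP1, MPP6, DIS3, RRP4, RRP40, CSL4, SKI6, RRP42, RRP43, RRP45, RRP46 and MTR3. It also held genes that act on mRNA more widely: NAB2 itself, PAB1, PAP1, HRP1, the nuclear 5′ exonuclease gene RAT1, and XRN1, DCP1, DCP2 and NAM7 (Upf1) of cytoplasmic decay. Of the 30, all tested, 3 rose and 0 fell at 15 min, where 0.145% of all features rose and 0.0162% fell. At 30 min 3 rose and 0 fell again, where 0.501% rose and 2.26% fell. These were NRD1, the RNA-binding subunit of the Nrd1-Nab3-Sen1 complex, TRF5, a poly(A) polymerase of TRAMP, and HRP1, a cleavage factor I subunit. NRD1 mRNA stood at 142 and 107 CPM at 0 min, 341 and 336 at 15 min and 484 and 520 at 30 min, against 125 and 163 in the control. Its log2 fold change was 1.44 ± 0.26 at 15 min (edgeR adjusted p = 0.0275) and 2.01 ± 0.26 at 30 min (edgeR adjusted p = 0.000879). TRF5 rose by 1.91 ± 0.36 and 2.20 ± 0.36 (edgeR adjusted p = 0.0339 and 0.00411) and HRP1 by 1.38 ± 0.24 and 1.58 ± 0.24 (0.0250 and 0.00251). Scaled on mitochondrial features, 0 of the 30 passed at either time; at 15 min 0 passed without replicate 1 at 15 min or without the 3 sparse libraries, and 1 without replicate 2. Scaled on snoRNA features, 10 fell at 15 min and 11 fell and 3 rose at 30 min. With DESeq2 3 rose and 1 fell at each time. Total library size gave 2 rises and 1 fall at 15 min, and edgeR with no read filter gave 3 rises and 1 fall at 30 min.

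The other 27, the exosome subunits and RRP6 among them, did not pass at either time. The list's median was -0.27 and -0.24 against -0.06 and -0.05 over all features. The exosome subunit gene MTR3 was close to the threshold at 30 min, with -1.65 ± 0.44 (edgeR adjusted p = 0.0538). RRP6, the nuclear exosome nuclease, was at 46.6 and 67.4 CPM at 0 min, 33.5 and 35.5 at 15 min and 41.9 and 57.0 at 30 min, so its groups overlapped at 30 min. NAB2 mRNA changed by -0.49 ± 0.28 and -0.14 ± 0.27 (edgeR adjusted p = 0.851 and 0.926). None of the list passed between 15 and 30 min. Whether the mRNA levels of these factors bear on the members was not tested.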

How the data were processed

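RNA of 8 yeast libraries, 4 groups of 2 biological replicates, was measured. The authors deposited raw read counts per feature in 1 table; per the submitters' processing notes, GSNAP, HTSeq 0.5.3, bedtools 2.17.0 and build R64 were used. Per the labels' protocols, S. pombe RNA was added as a spike-in, but 0 rows carry an S. pombe systematic name. From 7711 rows, 29 exact repeats and 23 further entries repeating a numbered gene were removed. Counts were scaled by TMM, filtered with filterByExpr and tested with edgeR 4.0.16 (R 4.3.3) quasi-likelihood on all 8 libraries in 4 groups (4 residual degrees of freedom). The SE of a log2 fold change was back-calculated from the statistic of that test, whose spread is moderated between features. It is not a standard error estimated from the 2 libraries of each group alone. Benjamini-Hochberg adjustment covered 6191 features. The fit was first run on simulated counts with a smaller spread than these data, in which only features with many reads changed. That run does not cover members with few reads or sparse libraries. CPM are TMM-scaled. Replicate numbers follow the descriptions; for 1 library at 30 min the title says 3 where the description says 2.

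Named members are those that pass, the 6 with the highest mean CPM, and 4 on each side of the control threshold. They also include the 6 largest rises and falls at 30 min among members with a mean of at least 20 reads. Other genes named are passing factors, NAB2, RRP6 and MTR3 (both chosen after their values were seen) and neighbours. Members, lists and tests were chosen with earlier results of these data known. Intervals on ratios of reads cover counting error only (95%, exact binomial). Alternatives were other scalings, DESeq2 1.42.0, no filter, a replicate block, other control thresholds and left-out libraries. CUT sequences and coordinates were not used here.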

Additional observations from a re-analysis of the deposited data

How the results depend on the processing

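Members called at 15 min over 0 min numbered 1 (of 10 features called in all), and 0 (of 0) when libraries were scaled on mitochondrial features; leaving out 1 library gave 0 to 1. At 30 min over 0 min the 2 calls (of 171 in all) became 0 of 15 with mitochondrial scaling, 1 of 1143 with snoRNA scaling, 4 of 256 without the 3 sparse libraries, 5 of 311 with DESeq2 and 0 to 4 with 1 library left out (0 of 40 and 0 of 217 without replicate 1 or 2 at 0 min, 4 of 442 and 1 of 130 without replicate 1 or 2 at 30 min). DESeq2 added CUT023, CUT158 and CUT445 as rises; leaving out replicate 1 at 30 min added CUT445 as a rise and CUT686 as a fall. At 30 min over 15 min leaving out 1 library gave 0 to 1 (1 of 282 without replicate 1 at 30 min). The ratio of the sums at 15 min was 1.59 with mitochondrial and 1.24 with snoRNA scaling, and 1.96 to 2.54 with 1 library left out. At 30 min it was 2.90 with total library size, 1.84 and 1.60 with mitochondrial and snoRNA scaling, and 2.25 to 3.03. At 30 over 15 min it was 1.19 with RLE scaling, no filter or DESeq2 scaling, 1.47 with total size, 1.28 with snoRNA scaling, 1.10 without the sparse libraries, and 1.12 to 1.22. Mitochondrial scaling shifted the median of all features to -0.53 and -0.49 at 15 and 30 min and snoRNA scaling to -0.92 and -0.74, where the members' medians were 0.56 and 0.69, and 0.17 and 0.25. The factor list had 0 calls at 15 and 30 min with mitochondrial scaling, 10 and 14 with snoRNA scaling (10 and 11 of them falls), 0 at 15 min without the sparse libraries, and 0 to 3 and 3 to 3 with 1 library left out. CUT025 at 30 min turned to -0.00848 and CUT229 to -0.162 with snoRNA scaling, and CUT229 to -0.0296 without replicate 1 at 30 min, within a range of -0.0296 to 0.84 with 1 library left out. The cause of these changes was not tested. Same-numbered libraries did not deviate together (correlations of -0.263 to 0.110); with the replicate block 1, 2 and 0 members were called at 15 min, 30 min and between them. Scaling on the spike-in and leaving out members that overlap a gene were not run, since the table holds neither spike-in rows nor CUT coordinates. The 57 members that were not tested did not pass the read filter.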

Other observations

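The rows of the deposited table are not all in numbering order. Its last 156 numbered features stand apart from the sequence, and so do its first 130; the files do not say what these blocks are. The last block held 13 CUTs, of which 10 were members: CUT158, CUT287, CUT291, CUT306, CUT375, CUT377, CUT445, CUT536, CUT557 and CUT686. All 10 had a higher mean at 15 min than at 0 min and 9 at 30 min, where 42% and 46.2% of all features did. Both members that passed were among them. Of all 156 features in that block 147 had a positive log2 fold change at 30 min and 22 rose in edgeR's test. In the first block 125 of 130 had a negative one and 32 fell, and it held 0 CUTs. Over all 6191 features tested 47.6% had a positive log2 fold change, 31 (0.501%) rose and 140 (2.26%) fell. Without these 10 members the sum of the other 278 was 427, 794 and 994 CPM at 0, 15 and 30 min, ratios of 1.86 and 2.33. The passing genes of the factor list, NRD1, TRF5 and HRP1, also stood in the last block, as did PAB1, which did not pass. RRP42 and NAB3 of that list stood in the first block. What this order means for the calls was not tested.

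CUT158, CUT445 and CUT554, picked after their values were seen, did not pass and were each called under at least 1 alternative. CUT445 had 89 and 99 reads at 0 min, 226 and 177 at 15 min and 239 and 184 at 30 min, while the control had 40 and 47; its log2 fold change at 30 min was 2.27 ± 0.74 (edgeR adjusted p = 0.117; DESeq2 0.0108). CUT158 had 14 and 20, 164 and 63, and 184 and 82 reads, and 0 and 14 in the control, with 3.90 ± 1.51 (edgeR adjusted p = 0.209; DESeq2 0.0155). CUT554 had 124 and 56, 140 and 166, and 355 and 88 reads, with 2.08 ± 0.85 (edgeR adjusted p = 0.234).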
